A study of Canis lupus familiaris with 30 samples.

Results

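The heat shock proteins on this canine array were represented by 4 named genes: the small heat shock protein HSPB1 (also called HSP27), the stress-inducible chaperone HSP70, its larger relative HSPA4 and the cochaperone DNAJA1. They were found by taking every probe, controls aside, whose RefSeq transcript belongs to 1 of these genes. They are 4 of the 1353 genes that the array names, and they gave 9 of its 43603 probes: 1 for HSPB1 (NM_001003295), 4 for HSP70 (NM_001003067), 2 for HSPA4 (NM_001048016) and 2 for DNAJA1 (NM_001252143). The RefSeq record of that DNAJA1 transcript lies at a short locus, and whether its probes read this locus or another copy of DNAJA1 was not analysed here, which holds for every DNAJA1 value below. All 9 passed the filter on dim probes, and 8 of them stood well above background in 60 of 60 channels, while the dimmest HSP70 probe did so in 59.

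Heat shock proteins are chaperones that keep other proteins folded. HSPB1 binds unfolding proteins without using ATP and holds them in a state from which they can be rescued, and it also takes part in the control of the actin skeleton. HSP70 folds its clients in cycles of ATP binding and hydrolysis. DNAJA1, a J-domain protein, delivers clients and stimulates the hydrolysis, and HSPA4 (APG-2, of the HSP110 branch of the family) exchanges the nucleotide so that a new cycle can begin. HSPB1 and HSP70 are classic targets of the heat shock transcription factor HSF1. The comparison below sets the small heat shock protein against the HSP70 system of chaperone, cochaperone and exchange factor.

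RNA came from peripheral blood mononuclear cells (PBMC), the lymphocytes and monocytes recovered from blood by density centrifugation, of adult dogs. The diets were the only food for 9 weeks: 8 dogs had a premium kibble that contained carbohydrate, and 7 had raw red meat, high in protein and fat. Samples date from week 0, labelled as the start, and from weeks 3, 6 and 9. Diet and week make 8 groups. Each of 30 arrays carried 1 group in Cy3 and another in Cy5. On 14 of them meat faced kibble at the same week, with 3 arrays each for weeks 0 and 3 and 4 each for weeks 6 and 9. The remaining 16 followed a single diet, pairing weeks 0 and 9 or weeks 3 and 6, with 4 arrays per pairing and diet and 1 dye order for each diet. Arrays are named here by their Cy3 group, their Cy5 group and a replicate number, as in kibble 6/meat 6 replicate 1. The labels state 6 biological replicates but not which dog was on which array, and each group was read in 7 or 8 channels. What the p-values measure is therefore array-to-array spread, which may be partly technical. The diet arrays of each week shared a slide of their own, so week and slide cannot be told apart on them. PBMC are a mixture, and in such bulk samples fewer cells of a type and less RNA per cell cannot be told apart.

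Between 19423 and 43411 probes per channel stood well above background, and both ends of that range came from slide 1. On it, meat 9/meat 0 replicate 1 had 42703 probes above background in Cy3 and 43411 in Cy5, and kibble 0/kibble 9 replicate 1 had 20089 and 19423. Without the 4 time arrays of that slide, the diet difference over weeks 3, 6 and 9 was log2 -0.40 for HSPB1 and -0.24 for HSP70, and both stayed past the threshold (limma adjusted p = 0.000586 and 0.0359). The tissue label was set against cell markers. The T cell markers CD4 and CD28, the B cell marker MS4A1 and the monocyte markers CD163, CYBB, TLR4, CTSS and FCGR1A stood above background in 60 of 60 channels. So did the neutrophil granule genes CAMP and LTF and the platelet genes GP1BA and ITGA2B, which belong to cells that are not mononuclear leukocytes.

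While the diets were fed, HSPB1 and HSP70 were lower in meat-fed dogs, whereas HSPA4 and DNAJA1 did not pass the test. As a mean over weeks 3, 6 and 9, HSPB1 was 1.32-fold lower on meat (log2 -0.41 ± 0.06 SE, lower on 10 of 11 arrays, limma adjusted p = 0.000124) and HSP70 was 1.18-fold lower (log2 -0.24 ± 0.07, lower on 10 of 11 arrays, adjusted p = 0.0238). For HSPA4 the difference was log2 0.02 ± 0.04 (95% interval -0.05 to 0.10, limma adjusted p = 0.777). For DNAJA1 it was log2 0.08 ± 0.03 (interval 0.01 to 0.16, adjusted p = 0.107, higher on 8 of 11 arrays). In this comparison 14.9% of the 25954 genes and unnamed transcripts tested passed the threshold, 7.94% as lower and 6.96% as higher on meat. Over all of them the median was log2 0.00, and 2.17% had a value below that of HSPB1 and 5.80% a value below that of HSP70.

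**Figure D1:**
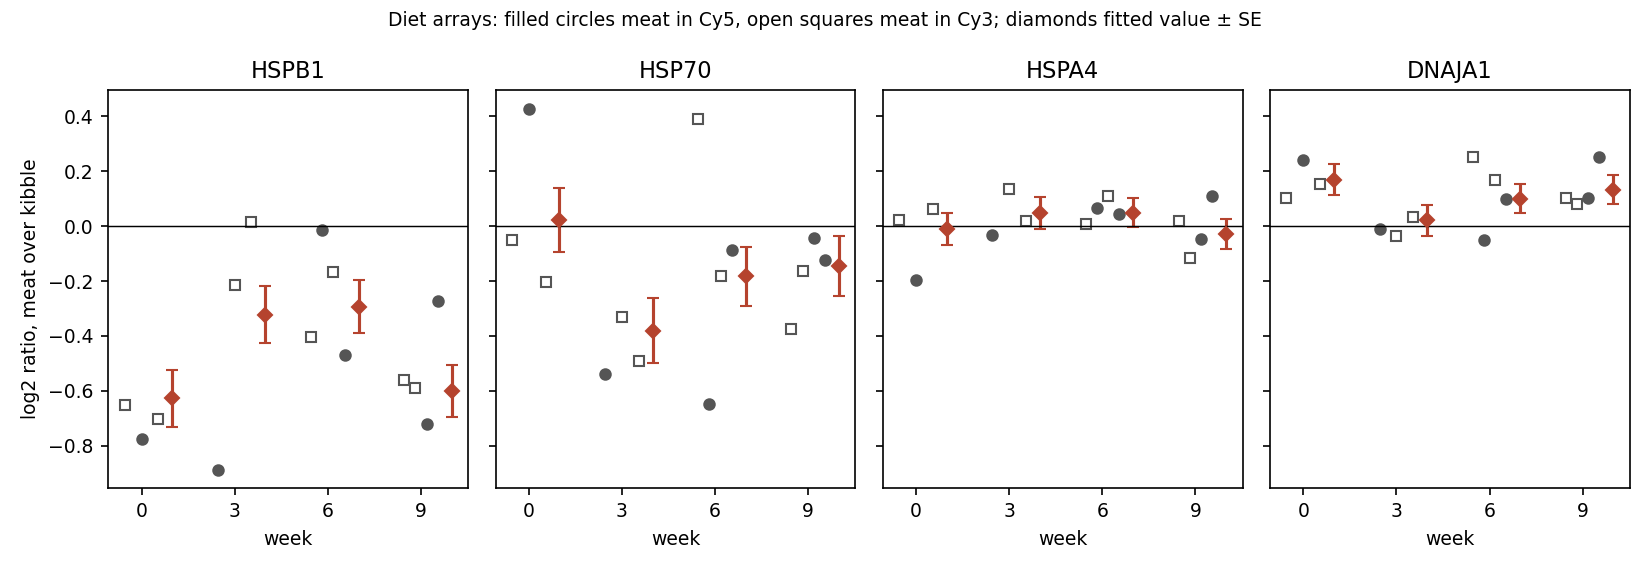
The log2 ratio of meat over kibble (vertical axis) for the 4 genes on each diet array, by week (horizontal axis), with filled circles for arrays with meat in Cy5, open squares for meat in Cy3, and a diamond beside each week for the fitted value and its standard error. HSPB1 lay below 0 on 13 of 14 arrays and HSPA4 stayed within -0.20 and 0.13, while HSP70 spread from -0.65 to 0.43.

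Week by week, HSPB1 was called lower on meat at week 0 and week 9 and missed the threshold at week 3 and week 6. At week 0 its 3 arrays read log2 -0.65, -0.78 and -0.70. The fitted difference was log2 -0.63 ± 0.10, a 1.54-fold lower level in the dogs assigned to meat (limma adjusted p = 0.00623), in a comparison where 0.312% of units passed and 0.239% passed as lower. The 3 arrays lay close together there, whereas at week 3 they ran from -0.89 through -0.21 to 0.02, the last being the only diet array on which HSPB1 was not lower on meat. The week 3 estimate was log2 -0.32 ± 0.10 and missed the threshold (limma adjusted p = 0.0611, with 6.09% of units called).

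At week 6 the 4 arrays of HSPB1 read -0.40, -0.02, -0.17 and -0.47, again all below 0 but with 1 close to it. The estimate was log2 -0.29 ± 0.10 and missed the threshold as well (limma adjusted p = 0.0680, with 6.23% called). At week 9 the arrays read -0.56, -0.59, -0.72 and -0.27, and the difference was log2 -0.60 ± 0.10, or 1.52-fold (limma adjusted p = 0.00265, with 0.582% called, 0.328% as lower). Fitted on the diet arrays alone, neither week 0 nor week 9 passed (log2 -0.73 and -0.54, limma adjusted p = 0.698 and 0.639). In that fit 0 of 25954 units passed at either week. With median centring in place of loess week 9 did not pass (-0.41, adjusted p = 0.564), where 2 of 25954 units passed as higher and 8 as lower. With that centring the mean over the fed weeks was -0.32 and missed the threshold too (adjusted p = 0.0685). The weekly estimates were not shown to differ from one another: the HSPB1 difference over the fed weeks minus that of week 0 was log2 0.22 ± 0.11 (limma adjusted p = 0.583), and that of week 9 minus week 0 was 0.03 ± 0.12 (adjusted p = 0.969).

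For HSP70, the ATP-dependent chaperone, the arrays of week 0 read -0.05, 0.43 and -0.20, on both sides of 0, and the estimate was log2 0.02 ± 0.12 (limma adjusted p = 0.994). At week 3 all 3 arrays were low, at -0.54, -0.33 and -0.49, and the estimate was -0.38 ± 0.12, just short of the threshold (adjusted p = 0.0505). Week 3 gave the lowest weekly estimate of HSP70 and the narrowest range between its arrays.

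At week 6 the 4 HSP70 arrays disagreed more than in any other week, reading 0.39, -0.65, -0.18 and -0.09, with an estimate of log2 -0.18 ± 0.11 (limma adjusted p = 0.381). The array at -0.65 (kibble 6/meat 6 replicate 1) was the one with the HSPB1 value of -0.02, and the array at 0.39 (meat 6/kibble 6 replicate 1) had HSPB1 at -0.40. At week 9 all 4 arrays were below 0 (-0.37, -0.16, -0.04 and -0.12), and the estimate was -0.15 ± 0.11 (limma adjusted p = 0.711). HSP70 thus missed the threshold in each single week. Its mean over the fed weeks rested on few arrays: without kibble 6/meat 6 replicate 1 it was log2 -0.16 (limma adjusted p = 0.135), without kibble 3/meat 3 replicate 1 it was -0.21 (0.0828) and without meat 3/kibble 3 replicate 2 it was -0.22 (0.0578). It also missed the threshold with median centring, scaling between arrays, array weights or the diet arrays alone, at log2 -0.25 to -0.15. The difference over the fed weeks minus that of week 0 was log2 -0.26 ± 0.13 and did not pass (limma adjusted p = 0.557). In the 3 comparisons of diet differences between weeks 0 of 25954 units passed in limma, while between 2034 and 2523 had an unadjusted p under 0.05.

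HSPA4, the nucleotide exchange factor, stayed close to 0 throughout. Its weekly estimates were log2 -0.01 ± 0.06, 0.05 ± 0.06, 0.05 ± 0.05 and -0.03 ± 0.05 at weeks 0, 3, 6 and 9, with limma adjusted p between 0.683 and 0.992. Its widest single array was -0.20, at week 0. DNAJA1, the J-domain cochaperone, was on the other side of 0 from HSPB1 in most arrays. It was higher on meat on all 3 arrays of week 0 (0.10, 0.24 and 0.15). In week 3 the arrays read -0.01, -0.04 and 0.03, in week 6 0.25, -0.05, 0.17 and 0.10, and in week 9 0.10, 0.08, 0.10 and 0.25. The estimates were log2 0.17 ± 0.06, 0.02 ± 0.06, 0.10 ± 0.05 and 0.13 ± 0.05, and none passed (limma adjusted p between 0.273 and 0.863).

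The small heat shock protein was then set against the HSP70 system on the same arrays. For each of the 11 diet arrays of weeks 3, 6 and 9 the log2 ratio of 1 gene was subtracted from that of another, and each of the 6 pairs was tested with a two-sided exact permutation test that turned the signs of the arrays. The smallest p this test can give with 11 arrays is 0.000977. HSPB1 was lower than HSPA4 by 0.42 on average, with the difference at -0.42 ± 0.25 (SD, n = 11 arrays, 11 of 11 below 0, exact adjusted p = 0.00586). Against DNAJA1 the difference was -0.48 ± 0.31 (10 of 11 arrays, exact adjusted p = 0.00586). Against HSP70 itself it was -0.15 ± 0.45 (7 of 11 arrays, exact adjusted p = 0.273). In the fed weeks the diet difference of HSPB1 was thus below those of the cochaperone and the exchange factor. No difference from that of HSP70 was detected there, and the array values of HSPB1 minus HSP70 ran from -0.79 to 0.63. Week 0 was not part of this test. On its arrays HSPB1 read -0.65, -0.78 and -0.70, below the -0.05, 0.43 and -0.20 of HSP70 on each. In the same order HSPA4 read 0.02, -0.20 and 0.06 and DNAJA1 0.10, 0.24 and 0.15. HSPB1 was thus also below HSPA4 and DNAJA1 on each week 0 array, and those gaps were not particular to the fed weeks. HSP70 lay on both sides of HSPA4 and of DNAJA1 there.

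Within the HSP70 system, HSP70 lay below DNAJA1 by -0.33 ± 0.21 (10 of 11 arrays, exact adjusted p = 0.00586) and below HSPA4 by -0.26 ± 0.31 (9 of 11, exact adjusted p = 0.0293). The second of these missed the threshold (exact adjusted p = 0.0586) when any 1 of 4 arrays was left out: kibble 3/meat 3 replicate 1, meat 3/kibble 3 replicate 2, kibble 6/meat 6 replicate 1 or meat 9/kibble 9 replicate 1. HSPA4 and DNAJA1 differed by -0.06 ± 0.12 (exact adjusted p = 0.157). Without meat 3/kibble 3 replicate 1 that difference was -0.09 (exact adjusted p = 0.0469).

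HSP70 and DNAJA1, the chaperone and its J-domain partner, had different diet differences but moved in parallel from one diet array to another. With ratios turned to meat over kibble, their Pearson correlation over the 14 diet arrays was 0.81 (Spearman 0.68), and 0.69 without the 2 arrays farthest from the median of DNAJA1. Over the 16 time arrays it was 0.57 (Spearman 0.39), and 0.23 without such a pair. HSPB1 correlated at -0.36 with HSP70, at -0.20 with DNAJA1 and at 0.60 with HSPA4 over the 14 diet arrays, and at 0.32, 0.37 and -0.25 over the time arrays. These are descriptions: arrays of a week share a slide, and the dogs behind them recur.

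Over time within a diet, none of the 4 genes passed in any of 16 tests (limma adjusted p between 0.158 and 0.995), and 1 of the 16 had an unadjusted p under 0.05. Of all units, 27.4% (kibble) and 21.2% (meat) had such a p from week 0 to week 9. From week 3 to week 6 it was 17.5% and 18.4%. From week 0 to week 9 HSPB1 changed by log2 -0.07 ± 0.10 in kibble-fed and -0.04 ± 0.10 in meat-fed dogs, in comparisons where 13.6% and 8.04% of units passed. From week 3 to week 6 it changed by -0.03 ± 0.10 and 0.00 ± 0.10, with 0.0347% and 2.25% of units called. The widest estimate belonged to HSP70 in meat-fed dogs from week 3 to week 6, at log2 0.28 ± 0.11 (interval 0.06 to 0.50, limma adjusted p = 0.158). Its 4 arrays read 0.03, -0.06, 0.30 and 0.58, so 3 of 4 were above 0. In kibble-fed dogs the 4 arrays of the same weeks read 0.01, 0.11, 0.28 and 0.18, and the estimate was 0.08 ± 0.11. HSP70 from week 0 to week 9 gave 0.08 ± 0.11 on kibble and -0.08 ± 0.11 on meat. HSPA4 ran from 0.06 to 0.08 in the 4 comparisons and DNAJA1 from -0.02 to 0.06.

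**Figure D2:**
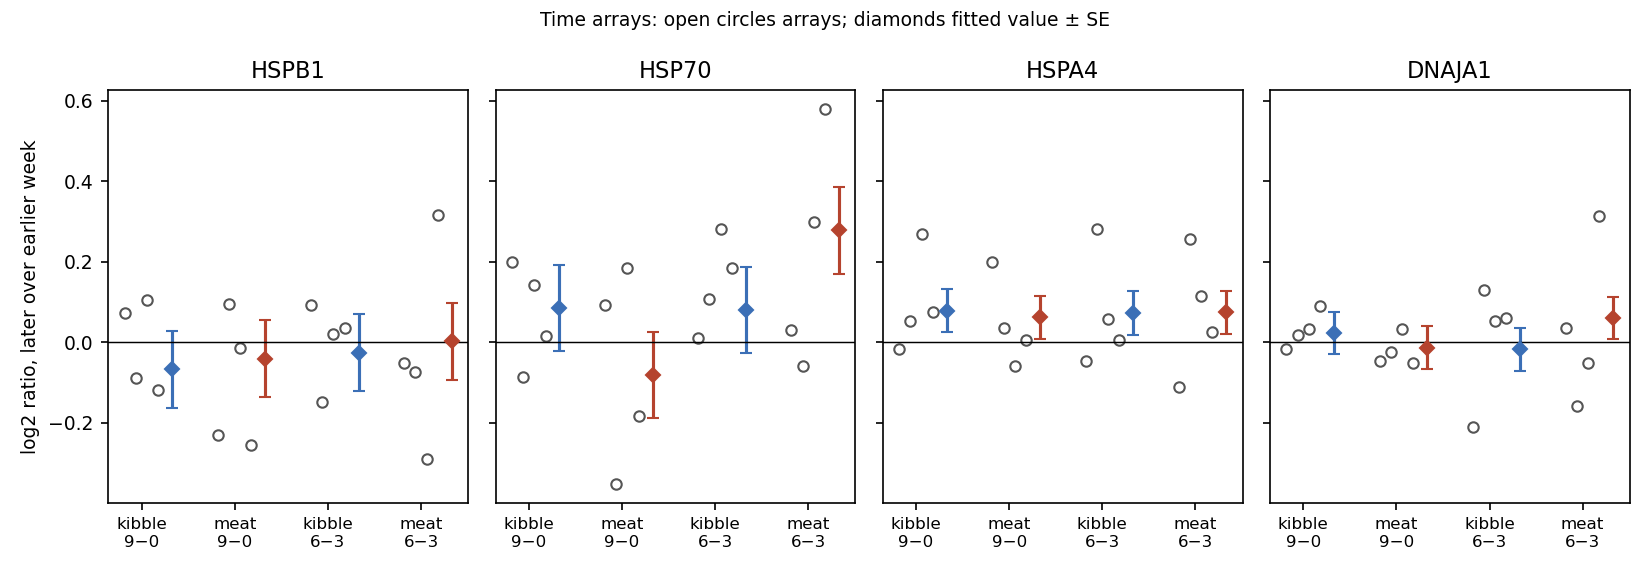
The log2 ratio of the later over the earlier week (vertical axis) on the 16 time arrays for each gene, with open circles for arrays and diamonds for the fitted value and its standard error. HSPB1 is above 0 on 7 of 16 arrays and DNAJA1 on 9, while HSP70 and HSPA4 are each above 0 on 12. The highest array is at 0.58, for HSP70 on meat from week 3 to week 6.

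Levels of the reported probe were read from each channel after normalisation between arrays, as log2 intensity on a scale of the probe's own, so they order the groups of a gene and not the genes. For HSPB1 all 4 kibble groups stood above all 4 meat groups. From high to low the means were 12.73 ± 0.12 (SD, n = 8 channels) for kibble week 9, 12.60 ± 0.23 (n = 7) for kibble week 0, 12.56 ± 0.15 (n = 8) for kibble week 6 and 12.38 ± 0.18 (n = 7) for kibble week 3. Then came meat week 6 at 12.19 ± 0.37 (n = 8), week 9 at 12.09 ± 0.29 (n = 8), week 3 at 11.97 ± 0.35 (n = 7) and week 0 at 11.92 ± 0.39 (n = 7). No neighbours in that order differed by more than the larger SD of the pair, except that the gap between kibble week 6 and kibble week 3 was slightly above it.

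Within each week most HSPB1 meat channels lay below the lowest kibble channel, and the others lay within the kibble range. The share of all units with such a separation was not computed. The meat channels below the lowest kibble channel numbered 6 of 7 (week 0), 5 of 7 (week 3), 5 of 8 (week 6) and 7 of 8 (week 9). The meat channel above the others at week 0 was on meat 9/meat 0 replicate 1, at 12.64. The spread was wider on meat: over weeks 3, 6 and 9 the 23 kibble channels ran from 12.15 through a median of 12.56 to 12.92, and the 23 meat channels from 11.44 through 12.06 to 12.76.

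HSP70 was also highest in kibble week 9 (11.22 ± 0.12), followed by kibble week 0 (11.12), kibble week 6 (11.11), kibble week 3 (10.99), meat week 0 (10.97), meat week 6 (10.94), meat week 9 (10.91) and, lowest, meat week 3 (10.63 ± 0.30). The gap between each pair of neighbours was below the larger SD of the pair. The order rested on meat 9/meat 0 replicate 1: without it meat week 0 averaged 11.17 ± 0.28 (n = 6) and meat week 9 11.06 ± 0.12 (n = 7), both above kibble week 3, and meat week 0 was then also above kibble week 0. The medians over the fed weeks were nearer than the means: 11.12 on kibble and 11.01 on meat, against means of 11.12 and 10.84. HSPA4 ran from 11.60 in kibble week 3 to 11.88 in kibble week 9, with the diets mixed in the order and every gap between neighbours below the larger SD. DNAJA1 ran from 12.38 in kibble week 3 to 12.63 in meat week 9, and its meat mean was above the kibble mean in each of the 4 weeks, again with gaps between neighbours below the larger SD.

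**Figure D3:**
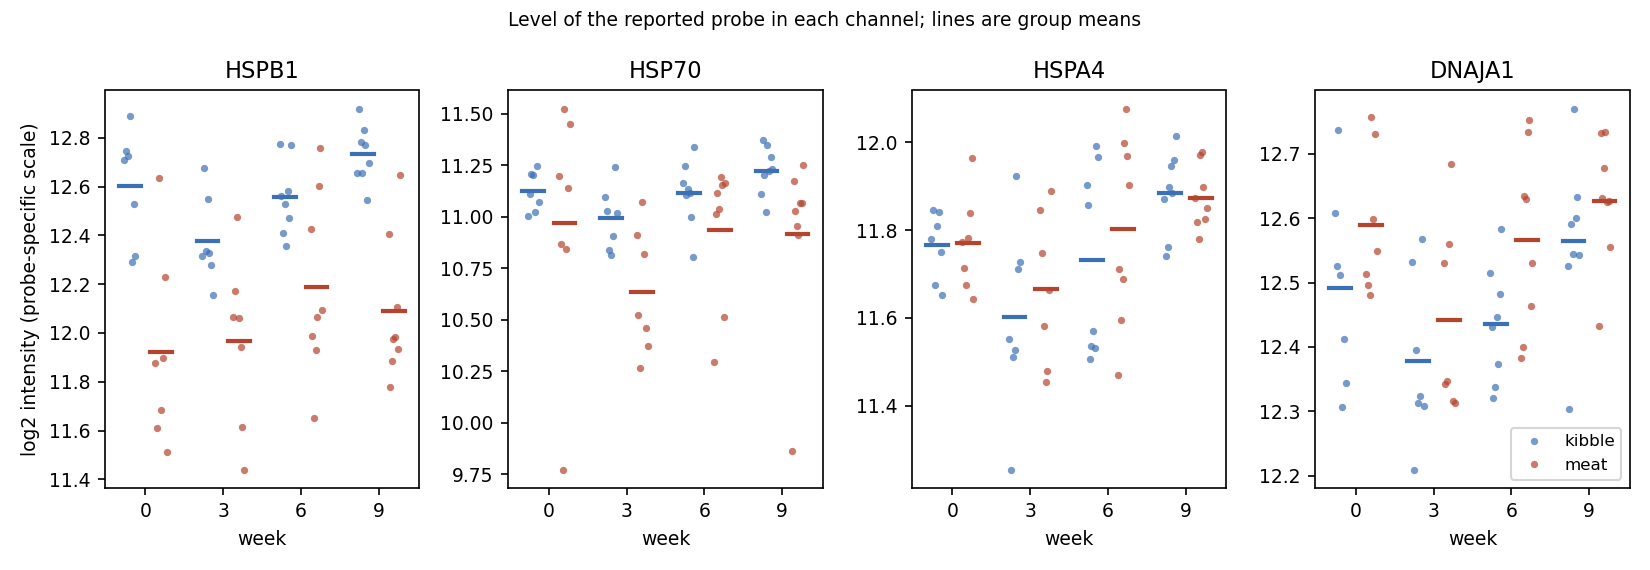
Log2 intensity of the reported probe (vertical axis, a scale of each probe's own) in every channel by week (horizontal axis), kibble in blue and meat in red, with a line at each group mean. The HSPB1 lines of kibble lie between 12.38 and 12.73 and those of meat between 11.92 and 12.19; the 2 lowest HSP70 points, at 9.77 and 9.86, are the 2 channels of 1 array.

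Where a gene had several probes, they were fitted one by one. Of the 4 HSP70 probes, 3 were lower on meat over the fed weeks, at log2 -0.24 ± 0.07, -0.20 ± 0.07 and -0.17 ± 0.06 from the brightest down (limma adjusted p = 0.0229, 0.0460 and 0.0469). The fourth, with a mean log2 intensity of 7.31 against 9.02 to 11.01 for the others, gave -0.01 ± 0.04 (adjusted p = 0.943), and was lower on 5 of 11 arrays. At week 0 this dim probe read log2 -0.15 ± 0.07, lower on 3 of 3 arrays (limma adjusted p = 0.487). The 3 brighter probes read 0.02, -0.01 and -0.00 there. The fed-week difference minus that of week 0 was 0.14 ± 0.07 for the dim probe (limma adjusted p = 0.552). For the brighter probes it was -0.26, -0.19 and -0.17. With all 4 averaged, HSP70 was at log2 -0.15 and missed the threshold (limma adjusted p = 0.0654). That dim probe alone passed from week 0 to week 9 on kibble, at log2 -0.19 ± 0.06 (adjusted p = 0.0371), where the brightest HSP70 probe read 0.08. Over the 14 diet arrays the 3 brighter probes correlated with each other at 0.74 to 0.95 and with the dim one at 0.40 to 0.65.

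At week 3 the 3 brighter HSP70 probes read -0.38, -0.34 and -0.30, and at week 6 -0.18, -0.19 and -0.18. At week 9 they spread from -0.15 through -0.07 to -0.02. The 2 probes of HSPA4 gave 0.02 and 0.03 over the fed weeks and those of DNAJA1 0.08 and 0.06, with correlations of 0.79 and 0.85 over the diet arrays. HSPB1 had 1 probe, so its value could not be set against a second. Inducible HSP70 genes have near-identical relatives, and which of them a probe binds was not analysed here.

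**Figure D4:**
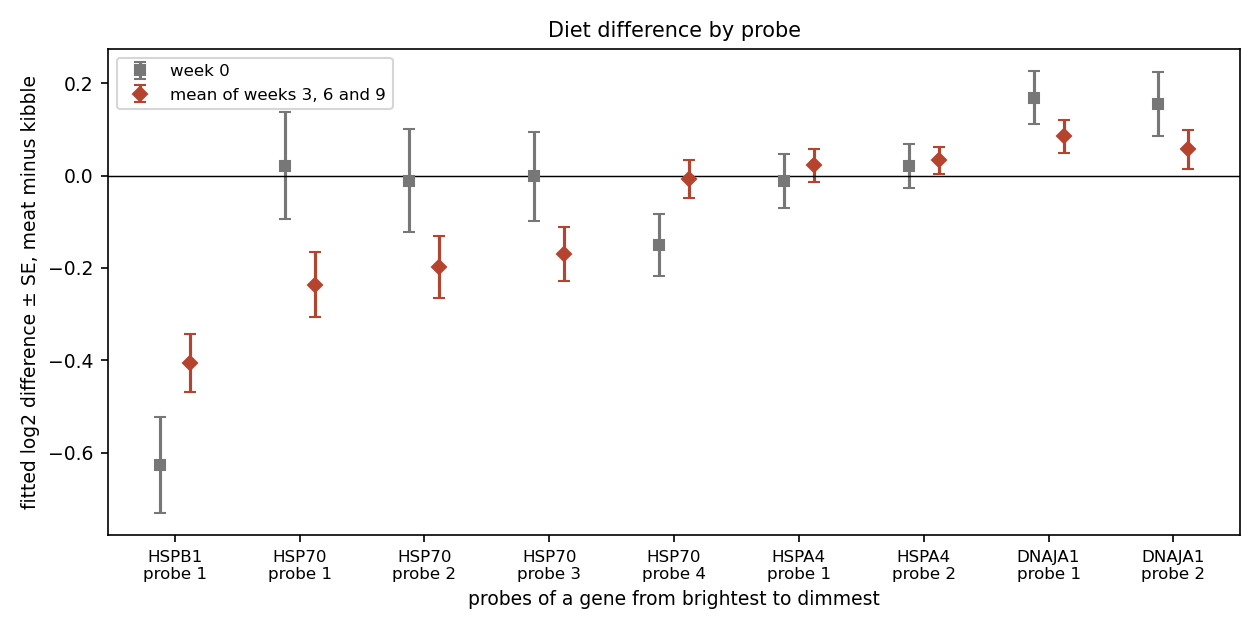
The fitted meat minus kibble difference with its standard error (vertical axis) for each of the 9 probes (horizontal axis, brightest to dimmest within a gene), at week 0 (squares) and as the mean of weeks 3, 6 and 9 (diamonds). HSPB1 is below 0 at both, and HSPA4 and DNAJA1 are near or above 0. The 3 brighter HSP70 probes are near 0 at week 0 and between -0.24 and -0.17 in the fed weeks. The dimmest HSP70 probe is at -0.15 at week 0 and at -0.01 in the fed weeks.

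Of a list of 87 other chaperones and proteostasis genes, 6 were named on the array. Over the fed weeks 1 of the 6 was higher on meat and 0 were lower, with a median of log2 -0.02, against 14.9% of all units called and a median of 0.00. The gene that passed was ST13, the HSP70-interacting cochaperone Hip, at log2 0.16 ± 0.04 (limma adjusted p = 0.0164). HSP90B1, the HSP90 of the endoplasmic reticulum, was at 0.09 ± 0.08 and the lens crystallin CRYAA, a small heat shock protein like HSPB1, at -0.07 ± 0.04. HSPB8, another small heat shock protein, was at -0.06 ± 0.03 (limma adjusted p = 0.157), the lectin chaperone CANX at -0.05 ± 0.04 and the collagen chaperone SERPINH1 at 0.01 ± 0.07. The 95% intervals of these other small heat shock proteins ended at -0.11 for HSPB8 and -0.16 for CRYAA, above the -0.41 of HSPB1, and CRYAA stood above background in 45 of 60 channels. At week 9 ST13 read 0.16 and did not pass (limma adjusted p = 0.379). From week 0 to week 9 on kibble, 1 of 6 rose, CANX at 0.17 ± 0.06 (limma adjusted p = 0.0496), where 5.05% of all units passed as higher.

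The genes with a symbol whose Cy5 over Cy3 ratios followed each gene most closely over the 30 arrays were named next, out of 1086. Because the diet arrays run in both dye orders, a steady diet difference raises this correlation by itself, so the correlation with ratios turned to meat over kibble is given beside it. HSPB1 was followed by MS4A2 (the FcεRI beta chain, which mast cells and basophils carry; r = 0.89 over 30 arrays, 0.64 over the 14 turned diet arrays and 0.71 over the 16 turned time arrays), then by the sulfatase SULF2 (0.78, 0.50 and 0.37) and CAMP, a granule peptide of neutrophils (0.72, 0.06 and 0.02). Without the 2 arrays farthest from the MS4A2 median, the turned value for MS4A2 was 0.37 on the diet arrays and 0.63 on the time arrays. Trimmed likewise, SULF2 gave 0.32 and 0.78 and CAMP 0.57 and -0.02. MS4A2 was lower on meat by log2 -1.17, -1.18, -0.98 and -1.36 at weeks 0, 3, 6 and 9 (SE 0.17 to 0.18, limma adjusted p = 0.00265, 0.000913, 0.00249 and 0.000140).

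HSP70 was followed by C5AR1, the receptor for complement C5a (0.80, 0.76 and 0.70), the bacterial lipopeptide receptor TLR2 (0.76, 0.69 and 0.88) and the G protein subunit GNB1 (0.72, 0.74 and 0.68). Without the 2 farthest arrays the turned values on the diet and time arrays were 0.56 and 0.35 for C5AR1, 0.20 and 0.66 for TLR2 and 0.61 and 0.66 for GNB1, so the 0.69 of TLR2 rested on 2 diet arrays. C5AR1 had its lowest diet difference at week 3, like HSP70, at log2 -0.83 ± 0.19 (limma adjusted p = 0.0137), and read -0.13 at week 0. It rose from week 3 to week 6 on meat by 0.70 ± 0.18 (limma adjusted p = 0.0358). HSP70 itself passed in neither of these comparisons. Because C5AR1 was picked for following HSP70 on these same arrays, the shared course is not separate evidence. HSPA4 was followed by HSP90B1 (0.72, 0.50 and 0.80), the splicing-associated PNN (0.71, 0.31 and 0.82) and SRP54 of the signal recognition particle (0.71, 0.59 and 0.83). Trimmed in the same way these were 0.66 and 0.64, 0.21 and 0.69, and 0.70 and 0.73. Among the genes that followed DNAJA1 were the fucosyltransferase FUT8 (0.61, 0.70 and 0.20) and PIGY of the GPI anchor pathway (0.53, 0.47 and 0.37), with trimmed values of 0.65 and 0.29 for FUT8 and 0.53 and -0.33 for PIGY.

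**Figure D5:**
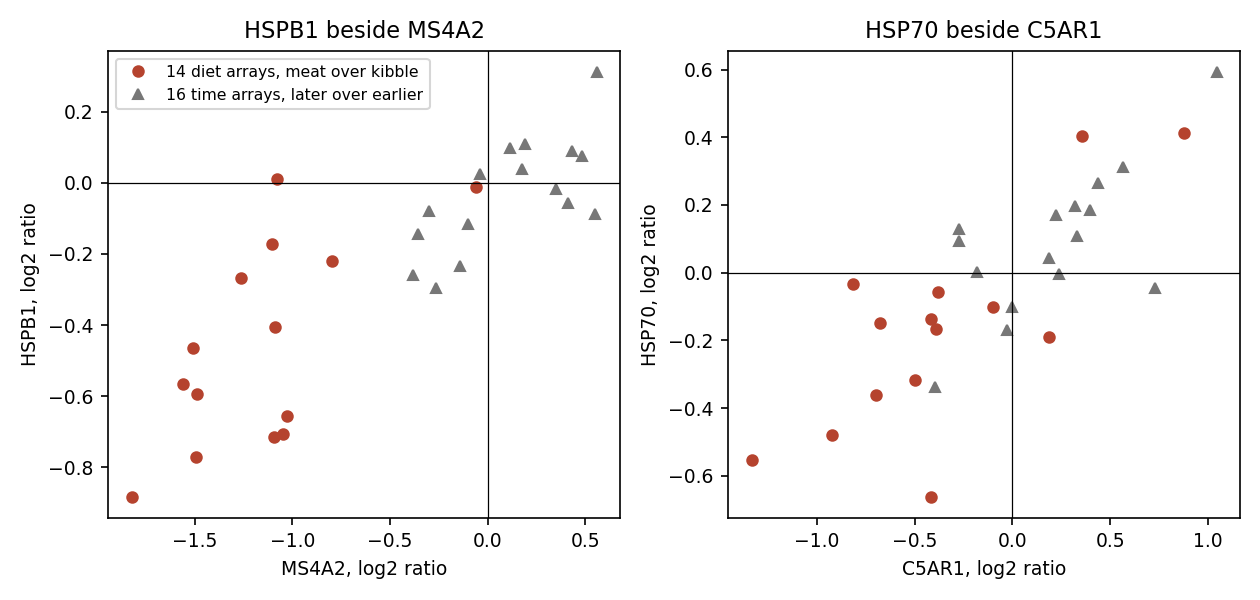
Log2 ratios of HSPB1 against MS4A2 (left) and HSP70 against C5AR1 (right), dye term removed, 1 point per array, with the 14 diet arrays as circles (meat over kibble) and the 16 time arrays as triangles (later over earlier week). MS4A2 is below 0 on all 14 diet arrays and HSPB1 on 13 of them (r = 0.64 among them), and HSP70 and C5AR1 spread along a common direction in both kinds of array (r = 0.76 and 0.70).

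Markers of blood cell types moved in the same comparison. Over the fed weeks, when 7.94% of all units passed as lower, limma called lower on meat 6 of the 7 platelet markers measured of 14 listed (median log2 -0.79), 4 of 5 monocyte markers of 10 (-0.46), 5 of 7 markers of cytotoxic T and NK cells of 13 (-0.31) and 3 of 6 neutrophil markers of 12 (-0.53). Of basophil and mast cell markers 1 of 3 was lower, of 6 listed, and this was MS4A2, since FCER1A and KIT read -0.00 and -0.01. Of erythroid markers 1 of 3 was lower, of 13 listed. Of 2 T cell markers, of 9 listed, 1 was higher, and the 1 B cell marker of 7 was at 0.01. Of 9 immediate early and stress-responsive genes of 28 listed, 1 was lower (median -0.02). At week 0, where HSPB1 was already lower, 1 of 6 neutrophil and 1 of 3 basophil and mast cell markers passed as lower, against 0.239% of all units. No platelet, monocyte or cytotoxic marker passed limma's test then, although 5 of 7 platelet, 3 of 5 monocyte and 0 of 7 cytotoxic markers had an unadjusted p under 0.05, against 8.88% of all units.

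The intensities of the genes of each list were summed per channel on the linear scale, and the log2 of the sum was taken. Over the fed weeks, in kibble and meat channels, it ran from 10.99 to 12.27 and from 10.28 to 11.15 for basophil and mast cell markers. For monocyte markers it ran from 14.67 to 15.73 and from 13.93 to 15.33, and for neutrophil markers from 13.01 to 16.72 and from 13.45 to 16.81. For platelet markers it ran from 15.02 to 16.41 and from 13.79 to 15.57, and for cytotoxic markers from 13.65 to 15.89 and from 13.06 to 15.76. Within the 14 diet arrays, HSPB1 correlated at 0.77 with the mean of the basophil and mast cell list, at 0.29 with the neutrophil, at -0.04 with the monocyte, at -0.68 with the platelet and at -0.79 with the cytotoxic list. The basophil and mast cell list holds MS4A2 and the neutrophil list CAMP. Both genes were picked above for following HSPB1 on these same arrays, so the correlations of these lists are not separate evidence. Over the 16 time arrays the HSPB1 correlations were, in the same order, 0.57, 0.10, 0.34, 0.06 and -0.25. Without the 2 arrays farthest from the median of each list they were 0.73, 0.30, -0.06, -0.56 and -0.69 on the diet arrays. On the time arrays they were then 0.56, 0.60, -0.38, -0.46 and -0.34, so several rested on few arrays. HSP70 correlated over the diet arrays at 0.49 with the monocyte, 0.47 with the cytotoxic, 0.41 with the immediate early, 0.31 with the T cell, 0.16 with the platelet, 0.10 with the neutrophil and -0.35 with the basophil and mast cell list. Over the time arrays these were 0.70, -0.42, 0.61, 0.69, -0.53, 0.72 and 0.02. Trimmed likewise, the HSP70 values were 0.75, 0.44, 0.08, 0.30, -0.16, -0.17 and -0.36 on the diet arrays. On the time arrays they were 0.44, -0.24, 0.49, 0.53, -0.62, 0.57 and 0.03. The part of these cell types in the differences of HSPB1 and HSP70 was not tested.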

How the data were processed

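RNA of PBMC was measured on 2-colour Agilent arrays, and the submitters' processing notes name Agilent Feature Extraction 10.10.1.1. Median spot and background intensity in both dyes were taken from the deposited scanner output. The deposited matrix holds log2 ratios of Cy5 over Cy3, for which the submitters' notes name limma; its scale, centring and direction were checked against the ratios computed here (correlation 0.834 to 0.992 per array, medians -0.01 to 0.01).

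The intensities were read anew with R 4.3.3 and the data.table package, version 1.17.8, without controls and 979 faulty spots (0 were saturated). limma 3.58.1 was used: normexp with an offset of 50, loess within arrays, and a filter on dim probes. Probes had to stand well above background in 7 of 60 channels or more, and 31698 did. The brightest probe stood for each gene or transcript (25954 units, of which 1090 have a symbol). The model had a term per group and a dye term per unit (23 residual degrees of freedom), with two-sided tests adjusted by Benjamini-Hochberg within each of 12 comparisons and a threshold of 0.05. Weeks 0 and 9 form a loop of their own, apart from weeks 3 and 6. Levels came from loess and Aquantile. Precision is limited by how many arrays there are. The fit was tested on simulated data.

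The members and gene lists were chosen with earlier results of these data known. Named were the 4 genes with all probes, the measured chaperones that passed in the fed weeks or at week 9 with the 3 largest there, the 3 genes most correlated with each member (1 of them is not reported here), and markers by list; the other 3 chaperones were added after their values were seen. Promoter and probe sequences were not analysed here.

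Alternatives covered background correction, normalisation, the dim-probe filter, the dye term, slide and replicate number as blocks, moderation, weights, subsets of arrays and the choice of probe. A dye term per scan session and leaving out the time arrays of slide 1 were added after seeing the data.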

Additional observations from a re-analysis of the deposited data

Results flagged for a closer look

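Of 56 groups of 4 to 10 values tested by Dixon's criterion, 3 held a value far from the others; chance alone gives about 1 such group in 20. DNAJA1 on the diet arrays of week 9 read 0.252 on kibble 9/meat 9 replicate 2, against 0.0820 to 0.101 on the other 3.

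The level of HSP70 was apart in both channels of 1 array, meat 9/meat 0 replicate 1. In the meat week 0 group it was 9.77 there against 10.85 to 11.53 in the other 6 channels, and in the meat week 9 group 9.86 against 10.91 to 11.25 in the other 7. The 4 HSP70 probes did not move alike on that array. Of the others, the second brightest read 8.92 and 8.84 against 9.74 to 10.42 and 9.96 to 10.28, and the dimmest 6.55 and 6.51 against 7.21 to 7.70 and 7.37 to 7.71. The third read 10.28 and 10.05, above the 8.80 to 9.32 and 8.93 to 9.35 of the other channels. The array had 437 faulty spots and the highest number of probes above background of all 30. Without it, the HSP70 diet difference over the fed weeks was log2 -0.24 (limma adjusted p = 0.0231). The cause was not tested.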

How the results depend on the processing

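The 48 results of the 4 genes were recomputed under up to 18 alternative settings and without each array in turn, 2280 values in all. Of these 2243 stayed on their side of the threshold, and 93 of them changed sign but passed nowhere. Of the rest 12 lost a call, 25 gained one and 0 reversed a called value. A call could be lost only by HSPB1 over the fed weeks, at week 0 and at week 9, and by HSP70 over the fed weeks. The other results were not called in the main fit. HSPB1 over the fed weeks lost its call with median centring in place of loess (log2 -0.32, limma adjusted p = 0.0685), and kept it in the other 16 settings and without any 1 array. At week 0 it lost its call with only the diet arrays (-0.73, adjusted p = 0.698), where 0 of 25954 units passed. At week 9 it lost its call with only the diet arrays (-0.54, 0.639), where again 0 passed. Median centring also took the week 9 call (-0.41, 0.564), with 2 units passing as higher and 8 as lower. HSP70 over the fed weeks lost its call with median centring (-0.15, 0.494), scaling between arrays (-0.19, 0.135), array weights (-0.20, 0.0533), only the diet arrays (-0.25, 0.0941) and the mean over probes (-0.15, 0.0654); leaving out single arrays gave -0.30 to -0.16. The count of units called over the fed weeks was 3869, 1080 with median centring and 1719 with only the diet arrays. HSP70 at week 3 gained a call in 5 settings, HSPB1 in 3 at week 3 and 2 at week 6. Median centring gave HSPB1 a fall from week 0 to week 9 on kibble (-0.44, limma adjusted p = 0.0380), and it and array weights a rise of HSP70 from week 3 to week 6 on meat (0.58, 0.0255, and 0.40, 0.0254). The cause was not tested. The labels do not say whether same-numbered arrays shared dogs. The median residual correlation of such arrays was -0.02 (range -0.78 to 0.62), against -0.05 for other pairs. A shared dog can sit in either dye and so give either sign, and this median cannot settle the question. With the replicate block, HSPB1 was -0.41 over the fed weeks and -0.65 at week 0, HSP70 was -0.23, and 3755 units passed over the fed weeks.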
